A study of Mus musculus with 6 samples.

Results

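The genes described here are 38 enzymes and partner proteins that write, erase or read modifications of histone lysines or place histone H3.3, out of 27179 genes counted in the series. They were taken from a list of names: 14 methyltransferases grouped by the lysine they modify, 12 lysine demethylases, 3 class I deacetylases, 5 proteins that handle H3.3, Trim28 and Zfp57, which bring H3K9 methylation to DNA, and the chromatin proteins Ctcf and Brwd1. All 38 were found by symbol and all had enough reads to be tested. RNA came from germinal vesicle oocytes of mice, immature oocytes that still hold an intact nucleus and await meiosis. In the knockout group the floxed exon 5 of Prdm10, a zinc finger gene of the PRDM family, had been removed by Cre under the Zp3 promoter, which acts in growing oocytes, so that other cells of the mouse keep the gene. The comparison group is labelled wildtype, and the labels used here give neither the age and strain of the mice nor whether wildtype oocytes carried the floxed allele. Each genotype had 3 libraries, each from a pool of about 10 oocytes, labelled as biological replicates. The labels do not say that the pools were taken from different animals, and p-values then cover only the spread among these libraries, which may be technical.

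As background, a growing oocyte builds most of its chromatin before it stops transcribing. MLL2, the product of Kmt2b, deposits much of the H3K4 methylation of the growing oocyte, SETD2 lays down H3K36 methylation that guides DNA methylation, and KDM1B removes H3K4 methylation so that imprints can be set. SETDB1, EHMT2 and SUV39H enzymes methylate H3K9, KDM4 and KDM6 enzymes erase H3K9 and H3K27 methylation, and HIRA or the DAXX and ATRX pair place the variant histone H3.3 outside replication. Many of these transcripts are stored for the embryo, where ZFP57 and TRIM28 keep imprints methylated.

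Library totals ran from 22492228 to 38831227 counts, so 1 count was worth 0.024 to 0.0457 CPM (counts per 1000000 of the TMM-scaled total of the tested genes). Prdm10 had 2.80, 3.82 and 3.05 CPM in knockout replicates 1 to 3 and 10.4, 23.1 and 22.96 CPM in wildtype replicates 1 to 3, over all its exons. Wildtype replicate 1 stood apart from the other wildtype libraries, with Spearman correlations across genes of 0.976 and 0.975 against 0.996 between wildtype replicates 2 and 3, so values are also given without it. The 12 oocyte markers listed, such as Zp3 and Gdf9, summed to 26529 CPM or more in each library. The 12 granulosa and cumulus markers summed to between 77.6 and 96.3 CPM in knockout and between 85.4 and 96.8 CPM in wildtype libraries, with Ptx3 at 0 throughout. The 8 theca and stroma markers summed to between 4.69 and 7.34 CPM in knockout and between 4.07 and 9.34 CPM in wildtype libraries. The 8 blood, immune and endothelial markers summed to between 117 and 121 CPM in knockout and between 36.3 and 82.2 CPM in wildtype libraries, a difference that came mostly from Pecam1 and also from Cd68, while the globin gene Hba-a1 and the endothelial Cdh5 were at 0. The part of these other markers in the results below was not tested. Because each value is a share of a pool's reads, fewer cells contributing and less RNA per cell cannot be told apart.

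In wildtype oocytes the imprint protein Zfp57 and the histone chaperones Asf1a and Asf1b had the most abundant of the 38 transcripts. Levels between genes are compared as CPM per kb of the longest GENCODE transcript, a measure that assumes that transcript. Zfp57 had 410 ± 56.0 CPM per kb, Asf1a, a chaperone that hands H3 and H4 to HIRA and other factors, 208 ± 14.2, and its paralog Asf1b 146 ± 9.02 (SD, n = 3). These 3 were separated from each other and from the rest, since their lowest wildtype library exceeded the highest of the next gene. Kdm1b followed at 70.4 ± 18.4 CPM per kb, then Atrx at 56.5 ± 4.72 and Suv39h2 at 56.0 ± 9.72, whose ranges overlapped in that order. At the other end Kmt2a, a methyltransferase for H3K4 best known from blood development, had 0.0363 ± 0.0383 CPM per kb, below the range of Kdm4c at 0.174 ± 0.0475. In all, 20 of the 38 had at least 10 CPM per kb, 14 between 1 and 10, and 4 (Kdm5a, Ehmt2, Kdm4c and Kmt2a) less than 1. Of the 37 neighbouring pairs in this order 11 had ranges that did not overlap, so the order within the middle of the list does not hold beyond the spread of the libraries.

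**Figure D1:**
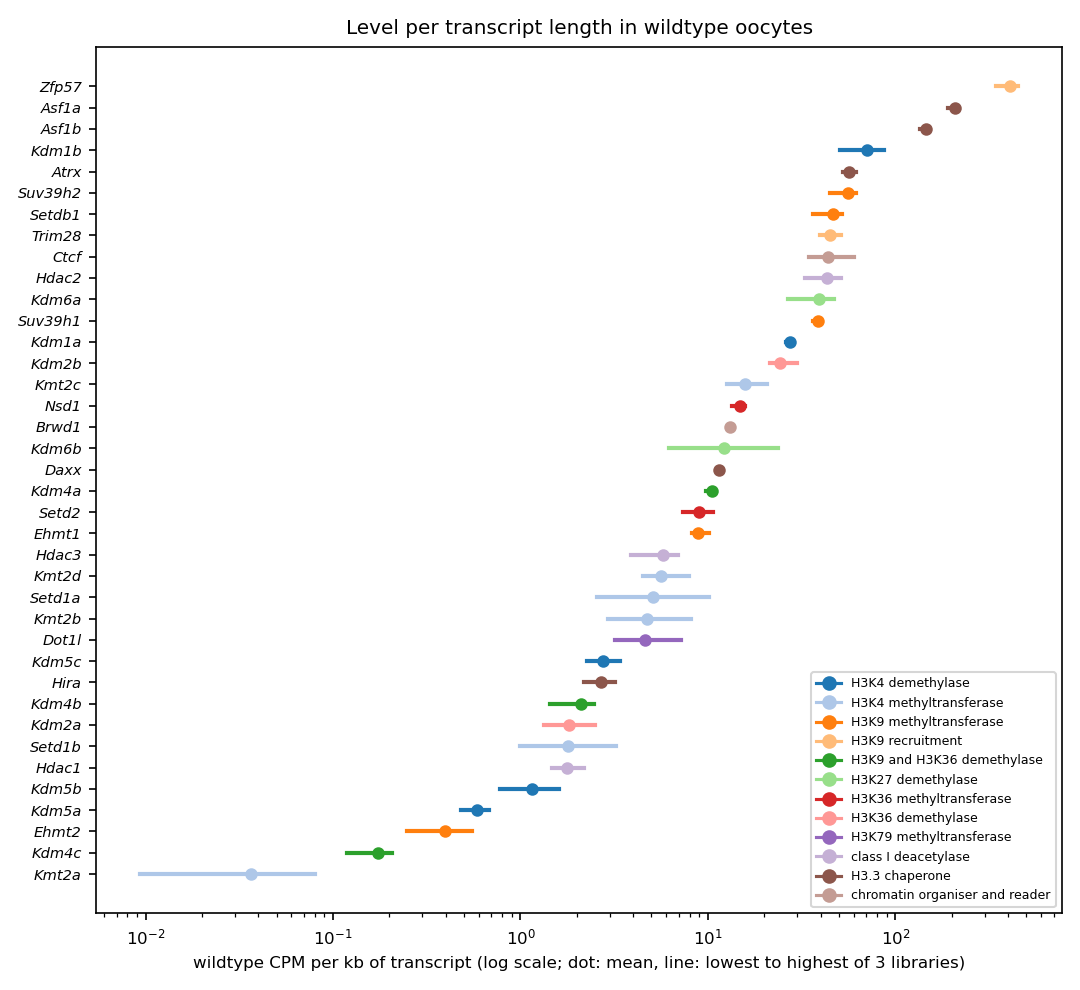
Level of each of the 38 genes in wildtype oocytes, in CPM per kb of the longest transcript on a log axis, with dots for the mean and lines from the lowest to the highest of 3 libraries, coloured by role. Zfp57, Asf1a and Asf1b stand above the rest at 410, 208 and 146, and the lines of Setd1a, Kdm6b and Kmt2a are the widest.

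Few of the 38 transcripts passed the test for a difference between knockout and wildtype oocytes. Hdac3, Daxx and Kdm4c rose and Kdm5c fell, while 34 did not pass an adjusted p of 0.05 (edgeR quasi-likelihood test over 14957 genes). The share called, 4 of 38 or 10.5%, was near that of all genes tested, 11.2%. By direction the background was 5.87% higher and 5.34% lower. The median log2 fold change, knockout minus wildtype, was 0.01 over the 38 and 0.00 over all genes. Of the 38, 21 were above and 17 below 0, and of all tested genes 49.7% were above 0. In 20 of the 38 (52.6%) the knockout and wildtype libraries did not overlap, against 40.2% of all genes, and 13 of these 20 were lower in knockout. Without wildtype replicate 1, 7 rose and 8 fell, 15 of 38 or 39.5%, against 34.4% of all genes, and all 4 calls held. By contrast none of the 4 held without any 1 of the knockout libraries or without wildtype replicate 2 (adjusted p between 0.0619 and 0.154, edgeR). Only Hdac3 and Kdm5c held without wildtype replicate 3. Calls over all genes fell in these fits too, from 878 higher and 798 lower with 6 libraries. They numbered 216 to 249 higher and 141 to 152 lower without 1 knockout library. Without wildtype replicate 2 they were 473 and 437, and without wildtype replicate 3 they were 501 and 426. Each of the 4 genes kept its direction in all of these fits.

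**Figure D2:**
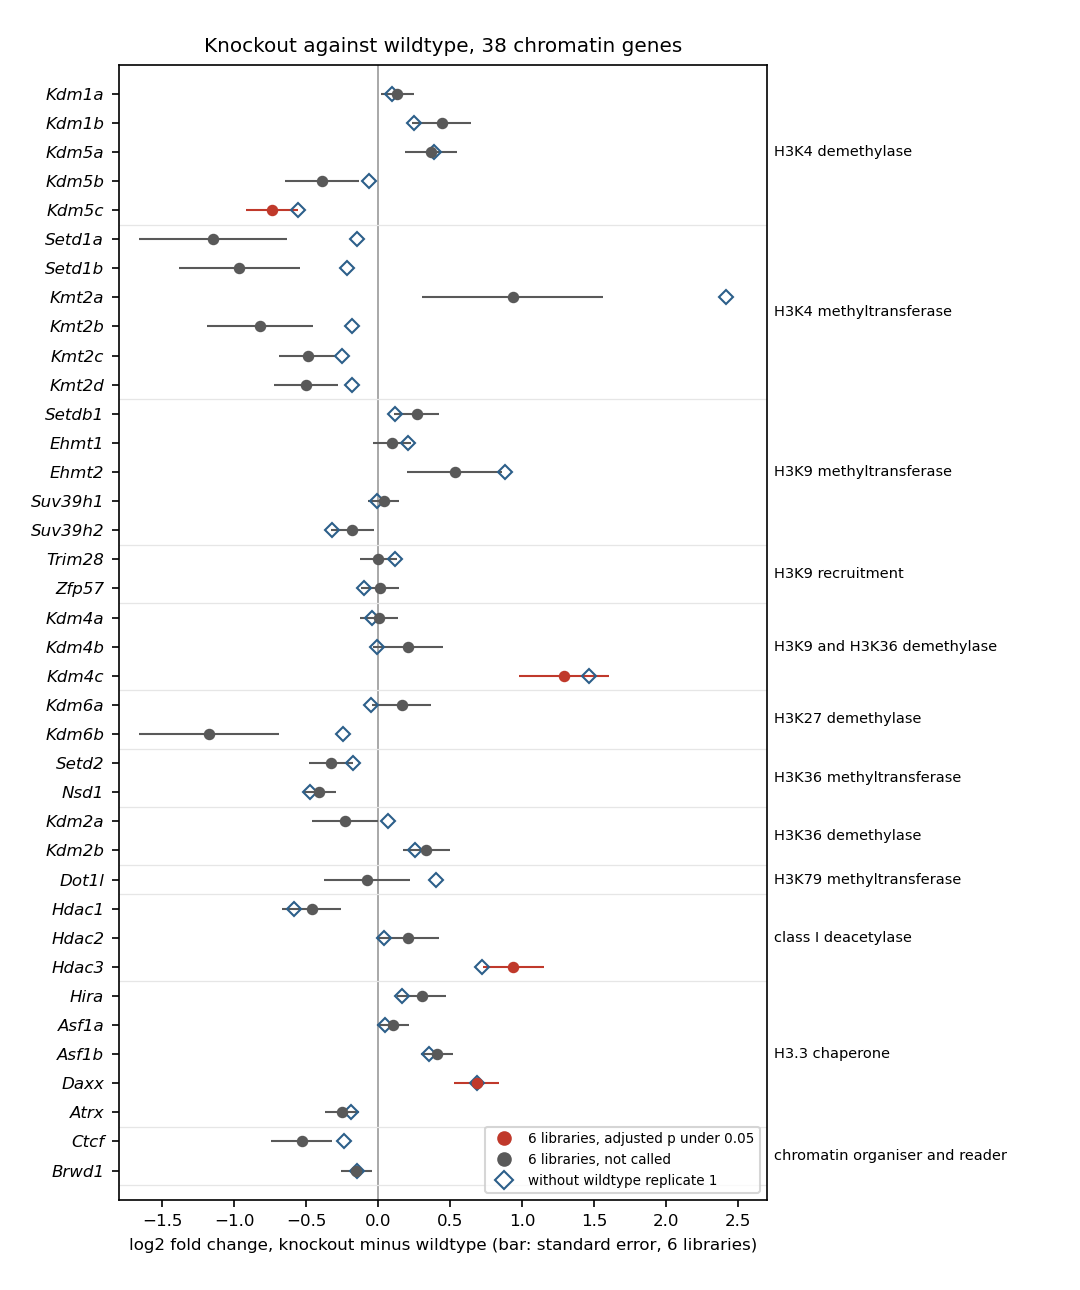
Log2 fold change of the 38 genes, knockout minus wildtype, by role, with dots and bars for the value and its standard error from 6 libraries and open diamonds for the value without wildtype replicate 1. Hdac3, Daxx and Kdm4c lie to the right and Kdm5c to the left of 0 with either set of libraries, while the diamonds of Setd1a, Setd1b, Kmt2b and Kdm6b lie much nearer to 0 than their dots.

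Hdac3, the deacetylase of nuclear receptor corepressor complexes (Entrez 15183, GRCm38 chromosome 18, 37936971 to 37955015), had 41.0, 37.99 and 39.1 CPM in knockout replicates 1 to 3 and 13.9, 22.8 and 25.0 CPM in wildtype replicates 1 to 3. The groups did not overlap, and the lowest library was wildtype replicate 1. The rise was 1.92-fold (log2 0.94, SE 0.215, adjusted p = 0.0322, edgeR), and without wildtype replicate 1 the log2 fold change was 0.72. Daxx, the chaperone that places H3.3 at heterochromatin and telomeres together with ATRX (Entrez 13163, chromosome 17, 33909404 to 33915590), had 60.2, 46.4 and 41.6 CPM in knockout and 30.9, 31.2 and 30.1 CPM in wildtype oocytes. Its wildtype libraries were nearly equal, the first one included, while the knockout libraries spread more, and the rise was 1.61-fold (log2 0.69, SE 0.158, adjusted p = 0.033, edgeR).

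Kdm4c, a demethylase of H3K9 and H3K36 (Entrez 76804, chromosome 4, 74242497 to 74405864), was scarce, at 2.27, 1.82 and 1.35 CPM in knockout and 0.865, 0.501 and 0.823 CPM in wildtype oocytes, or 77, 68 and 51 reads against 36, 13 and 18. The groups did not overlap, and the rise was 2.45-fold (log2 1.29, SE 0.314, adjusted p = 0.0386, edgeR). Kdm5c, an X-linked demethylase of H3K4 (Entrez 20591, chromosome X, 152233198 to 152279102), had 10.6, 11.6 and 9.96 CPM in knockout and 21.9, 16.9 and 14.6 CPM in wildtype oocytes. The genotypes were separate, with wildtype replicate 1 the highest library, and the decrease was 1.66-fold (log2 -0.73, SE 0.179, adjusted p = 0.039, edgeR). Kdm4c was not tested under a stricter filter of 5 CPM in 3 libraries, and Kdm5c missed the threshold there (adjusted p = 0.0608, edgeR). Scaling by library totals alone gave 0.0598 for Kdm5c and 0.0525 for Kdm4c. None of the 4 genes overlaps another gene of the RefSeq table, whereas 8 other members overlap a gene that was counted and could share its reads (Kdm1a with Luzp1, Kdm1b with Dek, Kdm5a with Ccdc77, Kdm5b with Mgat4e, Setdb1 with Cers2, Suv39h2 with Dclre1c, Asf1a with Mcm9 and Ctcf with Gm5914).

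**Figure D3:**
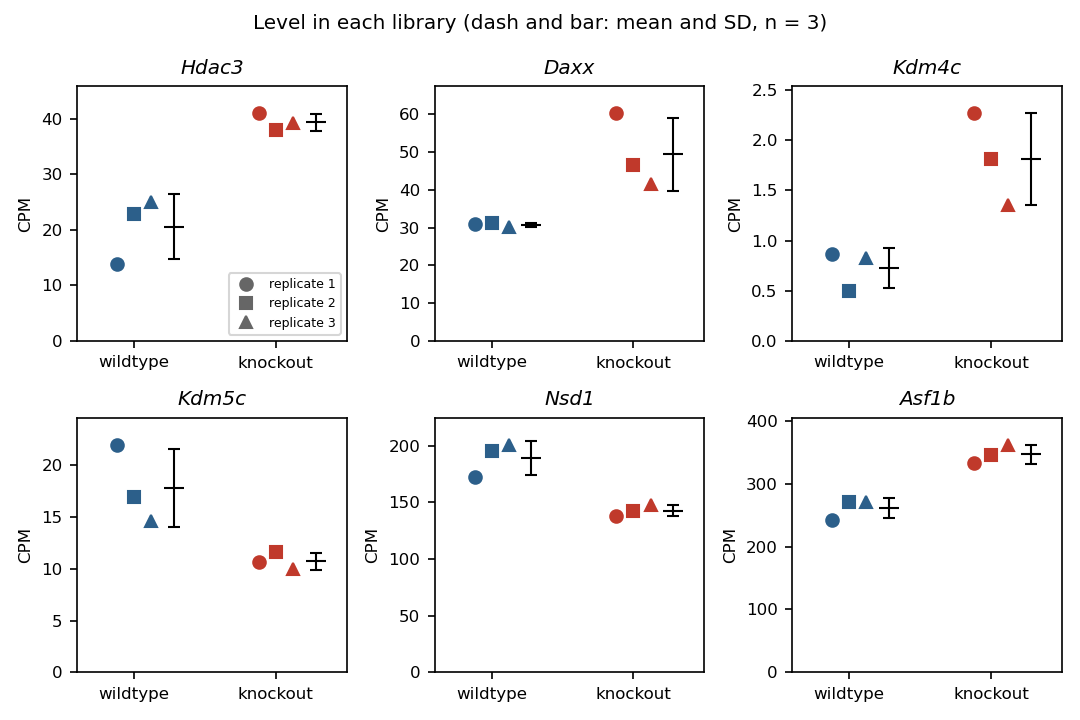
CPM in each library for the 4 genes that passed the test and for Nsd1 and Asf1b, which narrowly missed it, with replicate numbers as marker shapes and the mean and SD of 3 libraries beside them. The genotypes are separate in all 6 panels, by the widest margin relative to level in Kdm4c and Hdac3.

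The sequence before the start site is shown for the genes called with all 6 libraries that have an entry in the RefSeq promoter table (GRCm38.p6). Each run is on the plus strand, read 5′ to 3′, and ends before the annotated gene start or, for Kdm4c, before the start that lies in a CpG-rich stretch inside the annotated gene. Where a gene had several windows, the most upstream one with at least 10 CpG was taken. Capitals mark matches on either strand to the CCAAT box (CCAAT), the GC box (GGGCGG) or the E-box (CACGTG), motifs picked after the sequences were seen.
Kdm5c, chrX:152232977-152233197: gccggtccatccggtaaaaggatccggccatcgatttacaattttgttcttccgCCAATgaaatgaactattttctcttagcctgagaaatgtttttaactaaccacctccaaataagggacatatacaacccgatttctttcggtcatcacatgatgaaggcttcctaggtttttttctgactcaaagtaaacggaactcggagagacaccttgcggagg
Kdm4c, chr4:74251629-74251878: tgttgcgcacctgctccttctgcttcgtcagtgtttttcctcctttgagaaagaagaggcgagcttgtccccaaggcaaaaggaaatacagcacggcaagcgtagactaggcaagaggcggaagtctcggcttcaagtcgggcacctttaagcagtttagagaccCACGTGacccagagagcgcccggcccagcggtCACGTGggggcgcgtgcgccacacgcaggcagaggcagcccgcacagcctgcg
Daxx, chr17:33909195-33909403: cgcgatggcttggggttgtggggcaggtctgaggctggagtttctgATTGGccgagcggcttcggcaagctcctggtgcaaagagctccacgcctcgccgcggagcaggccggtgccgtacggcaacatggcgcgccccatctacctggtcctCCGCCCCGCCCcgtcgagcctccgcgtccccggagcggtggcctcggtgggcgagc
The Kdm5c stretch held 10 CpG in 221 bases with a GC content of 43.0%, the Kdm4c stretch 19 in 250 bases (60.4%) and the Daxx stretch 24 in 209 bases (71.3%). The Kdm4c stretch held 2 E-boxes, a motif found in 6.0% of all 32851 windows of 250 bases. Kdm5c and Daxx each held 1 CCAAT box, as did 33.8% of windows, and Daxx held 2 overlapping GC boxes, which 32.7% of windows had at least once. Of the 29 members with an entry, 3 had an E-box, 11 a CCAAT box and 22 a GC box in at least 1 window. These counts are per gene over any of its windows, so they cannot be set against the shares of single windows. These matches describe the letters only.

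Of the 6 methyltransferases for H3K4, 5 had every knockout library below every wildtype library, where 40.2% of all tested genes had groups that did not overlap in either direction, but none passed the test, and the size of the difference depended on wildtype replicate 1. Setd1a, a subunit of a complex that methylates H3K4 at active promoters, had 14.1, 14.9 and 15.9 CPM in knockout and 65.7, 16.6 and 16.5 CPM in wildtype oocytes (log2 -1.14, SE 0.512, adjusted p = 0.185, edgeR). Its paralog Setd1b had 8.13, 8.07 and 8.29 CPM against 28.5, 8.78 and 10.2 CPM (log2 -0.96). Kmt2b, the main H3K4 methyltransferase of the growing oocyte, had 24.3, 21.5 and 22.7 CPM against 68.5, 26.9 and 24.8 CPM (log2 -0.82). In these 3 genes wildtype replicate 1 stood 2.65 to 3.97 times above the mean of the other wildtype libraries, which lay close to the knockout level. Without it their log2 fold changes were -0.15, -0.21 and -0.18, with adjusted p between 0.162 and 0.303 (edgeR).

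Kmt2c and Kmt2d, the large enzymes that methylate H3K4 at enhancers, were among those 5. Kmt2c had 149, 169 and 185 CPM in knockout and 308, 190 and 208 CPM in wildtype oocytes (log2 -0.49, adjusted p = 0.15, edgeR). Kmt2d had 78.2, 83.2 and 76.5 CPM against 157, 88.8 and 90.5 CPM (log2 -0.50, adjusted p = 0.185, edgeR). Without wildtype replicate 1 the values were -0.25 and -0.18, and Kmt2c then passed the test (adjusted p = 0.0429, edgeR) while Kmt2d did not. Kmt2a went the other way, with 1.06, 1.02 and 1.67 CPM in knockout and 1.32, 0.154 and 0.320 CPM in wildtype oocytes, or 36, 38 and 63 reads against 55, 4 and 7. Its knockout range enclosed wildtype replicate 1 but lay above the other wildtype libraries, so that the log2 fold change of 0.94 (adjusted p = 0.358, edgeR) became 2.42 without that library (adjusted p = 0.00214, edgeR). Over the 6 enzymes the median was -0.66, and -0.18 without that library.

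**Figure D4:**
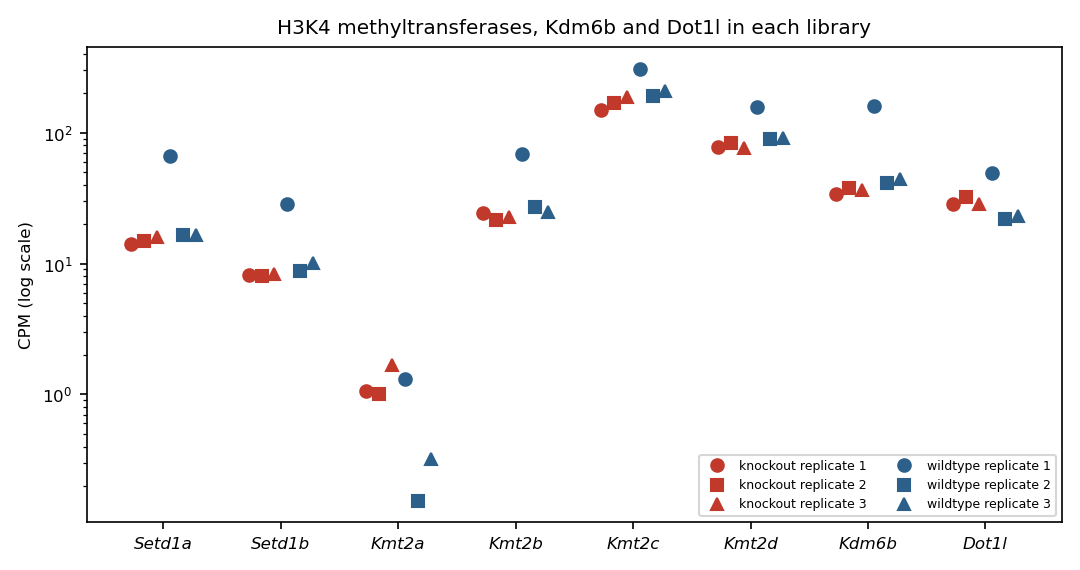
CPM on a log axis in each of the 6 libraries for the H3K4 methyltransferases, the H3K27 demethylase Kdm6b and the H3K79 methyltransferase Dot1l, with colour for genotype and marker shape for replicate number. Wildtype replicate 1 (blue circles) is the highest library for 7 of the 8 genes, and for Kmt2a it lies among the knockout libraries.

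Genes listed as subunits or partners of H3K4 methyltransferase complexes, not all of them common to these enzymes, were not called in one direction. Of 16 genes listed, all tested, 1 rose and 1 fell, 12.5% against 11.2% of all genes tested. By sign, 11 of the 16 had log2 fold changes above 0 and 5 below 0, where 49.7% of all tested genes were above 0. The groups did not overlap in 7 of them (43.8%, against 40.2% of all genes), 6 higher and 1 lower in knockout. Ash2l, a core subunit of the complexes that hold the SETD1 and KMT2 enzymes, rose from 82.8 ± 20.3 to 139 ± 7.01 CPM (log2 0.74, adjusted p = 0.0434, edgeR). Psip1, which encodes LEDGF, a chromatin tether of the MLL1 and MLL2 enzymes, fell from 329 ± 49.4 to 171 ± 2.94 CPM (log2 -0.95, adjusted p = 0.00647, edgeR). The core subunits Wdr5, Rbbp5 and Dpy30 had log2 fold changes of 0.44, 0.13 and -0.12 and were not called. Without wildtype replicate 1 both calls held, and 4 of the 16 rose and 2 fell, 37.5% against 34.4% of all genes. Without each of the other 5 libraries in turn Ash2l lost its call (adjusted p between 0.0562 and 0.167, edgeR), and Psip1 lost its call only without knockout replicate 2 (adjusted p = 0.0563).

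Among the demethylases of H3K4 only Kdm5c, described above, passed the test. Its autosomal paralog Kdm5a leaned the other way, with 9.31, 8.04 and 7.52 CPM in knockout and 6.58, 5.24 and 7.46 CPM in wildtype oocytes (log2 0.37, adjusted p = 0.227, edgeR), and Kdm5b had a log2 fold change of -0.39 with overlapping groups. Kdm1b, the demethylase required for imprints in the oocyte and one of the most abundant members, had 552, 444 and 435 CPM in knockout and 253, 366 and 434 CPM in wildtype oocytes. Its highest wildtype library nearly met the lowest knockout library, and the difference was not called (log2 0.44, SE 0.206, adjusted p = 0.203, edgeR). Dek, which overlaps Kdm1b, had a log2 fold change of -0.42. Kdm1a, the paralog that acts with CoREST, had a log2 fold change of 0.13 (SE 0.114). Among 12 tested genes of a list of other JmjC demethylases and their relatives 1 rose, Kdm3a, an H3K9 demethylase, from 5.52 ± 0.323 to 8.72 ± 0.425 CPM (log2 0.66, adjusted p = 0.0286, edgeR), and 0 fell. The share called in that list was 8.33%, against 11.2% of all genes tested. The call for Kdm3a held without wildtype replicate 1 but not without any other library (adjusted p between 0.0664 and 0.148, edgeR). The 3 genes of that list not tested were Kdm5d, Uty and Hr.

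None of the 5 methyltransferases for H3K9 passed the test, and 4 of them had log2 fold changes above 0, where 49.7% of all tested genes did. Setdb1, which silences retroelements through TRIM28, had 332, 306 and 311 CPM in knockout and 204, 295 and 288 CPM in wildtype oocytes (log2 0.27, adjusted p = 0.303, edgeR). Those groups did not overlap, with wildtype replicate 1 the lowest library. Suv39h1 had a log2 fold change of 0.04 (SE 0.105), and Ehmt1, the partner of EHMT2 in the H3K9 dimethylation complex, 0.10 (SE 0.132). Ehmt2 itself was scarce, at 2.34 ± 0.617 against 1.59 ± 0.605 CPM. Suv39h2 had 212, 215 and 216 CPM in knockout and 194, 265 and 268 CPM in wildtype oocytes. Wildtype replicate 1 was its lowest library, and the log2 fold change was -0.18 with it (adjusted p = 0.455, edgeR) and -0.32 without it (adjusted p = 0.00096, edgeR).

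Trim28 and Zfp57 had log2 fold changes of 0.00 and 0.01, each with an SE of 0.132. Zfp57 ran at 1062, 1086 and 1077 CPM in knockout and 900, 1122 and 1174 CPM in wildtype oocytes, so the knockout libraries lay inside the wildtype range. Of the KDM4 erasers of H3K9 methylation, Kdm4c rose as described, whereas Kdm4a (log2 0.01, SE 0.13) and Kdm4b (log2 0.21, SE 0.243) were not called. Per transcript length Kdm4a was the most abundant of these 3 in wildtype oocytes, at 10.5 ± 0.664 CPM per kb against 2.11 ± 0.581 for Kdm4b and 0.174 ± 0.0475 for Kdm4c. Of 15 genes listed as partners of H3K9 methylation, including the HP1 proteins and the HUSH complex, 0 were called by edgeR. Not all of the 15 need act with these enzymes. In that list 2 genes had an unadjusted p under 0.05, and the median log2 fold change was -0.07. The lowest p belonged to Rlf (log2 0.57, adjusted p = 0.0599) and the next to Atf7ip, a partner of SETDB1 (log2 0.63, adjusted p = 0.128, edgeR).

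For H3K27 the pair of demethylases differed in how the libraries ran. Kdm6a, which escapes X inactivation in female cells, had 241, 271 and 268 CPM in knockout and 159, 279 and 259 CPM in wildtype oocytes (log2 0.16, adjusted p = 0.628, edgeR). Kdm6b had 33.8, 37.9 and 36.7 CPM in knockout and 158, 41.1 and 44.2 CPM in wildtype oocytes. Wildtype replicate 1 was thus the lowest wildtype library for Kdm6a and 3.71 times the mean of the others for Kdm6b. For Kdm6b the log2 fold change was -1.17 (SE 0.487, adjusted p = 0.16, edgeR) with all libraries and -0.24 (adjusted p = 0.0483) without that one.

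Neither of the 2 H3K36 methyltransferases passed the test, though both had all knockout libraries below the wildtype ones (40.2% of all tested genes had groups that did not overlap). Nsd1, which makes H3K36 dimethylation (Entrez 18193, chromosome 13, 55209782 to 55318325), had 138, 142 and 148 CPM in knockout and 172, 195 and 201 CPM in wildtype oocytes. Its log2 fold change was -0.41 (SE 0.114, adjusted p = 0.0579, edgeR), and -0.47 without wildtype replicate 1 (adjusted p = 0.000127). Setd2 had 58.6, 59.5 and 60.4 CPM against 89.3, 61.7 and 72.6 CPM (log2 -0.33, adjusted p = 0.2, edgeR). The erasers Kdm2a and Kdm2b had log2 fold changes of -0.23 and 0.34, both with overlapping groups. Ash1l, a further H3K36 methyltransferase outside the 38, fell from 28.4 ± 6.52 to 17.2 ± 1.27 CPM (log2 -0.73, adjusted p = 0.0405, edgeR). It was the only 1 called of 19 tested genes in a list of other lysine methyltransferases, 5.26% against 11.2% of all genes tested. In that list 14 of 19 had log2 fold changes below 0, some of them close to 0, and the median was -0.21. Of all tested genes 49.7% were above 0. The call for Ash1l was lost without any 1 library other than wildtype replicate 1 (adjusted p between 0.0509 and 0.174, edgeR).

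Dot1l, the enzyme for H3K79 methylation, had 28.5, 32.2 and 28.6 CPM in knockout and 48.9, 21.8 and 23.1 CPM in wildtype oocytes. The knockout libraries lay between wildtype replicate 1 and the others, so the log2 fold change was -0.08 with all libraries (adjusted p = 0.888, edgeR) and 0.40 without that one (adjusted p = 0.0081). Of its 6 listed partners Mllt10, which encodes the cofactor AF10, fell from 348 ± 48.6 to 231 ± 5.40 CPM (log2 -0.59, adjusted p = 0.0297, edgeR), and 0 rose. The share called among these 6 was 16.7%, against 11.2% of all genes tested. Mllt10 was not called without wildtype replicate 2 or any 1 knockout library (adjusted p between 0.0646 and 0.144, edgeR).

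The class I deacetylases showed 3 different patterns. Hdac3 rose as described. Hdac2, the most abundant of the 3 at 43.4 ± 9.49 CPM per kb in wildtype oocytes, had 205, 138 and 145 CPM in knockout and 107, 167 and 150 CPM in wildtype oocytes (log2 0.21, adjusted p = 0.545, edgeR). Hdac1 was scarce and leaned lower, with 2.68, 2.698 and 2.44 CPM against 3.002, 3.39 and 4.44 CPM (log2 -0.46, SE 0.207, adjusted p = 0.187, edgeR). Its groups did not overlap, and without wildtype replicate 1 it passed (log2 -0.58, adjusted p = 0.0356). Among 24 genes of the complexes that hold these enzymes, Mta2, a NuRD subunit, rose from 2.88 ± 0.362 to 6.44 ± 2.07 CPM (log2 1.17, adjusted p = 0.0296, edgeR). Hmg20b, a subunit of the CoREST complex, fell from 19.4 ± 7.86 to 9.07 ± 0.779 CPM (log2 -1.10, adjusted p = 0.039, edgeR), and 22 were not called. The share called among these 24 was 8.33%, against 11.2% of all genes tested. Ncor1, a corepressor that binds HDAC3, had a log2 fold change of -0.19 and did not pass. Of 14 tested deacetylases of other classes only Hdac9, of class IIa, was called, lower at 5.58 ± 0.355 against 11.96 ± 2.66 CPM (log2 -1.10, adjusted p = 0.0143, edgeR). That was 7.14% of these 14, also below the share of all genes. Hdac9 and Hmg20b lost their calls without any 1 knockout library (adjusted p between 0.072 and 0.166, edgeR), and Mta2 without any 1 library other than wildtype replicate 1 (adjusted p between 0.0507 and 0.0994).

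Of the 5 proteins that handle H3.3, 4 had log2 fold changes above 0, where 49.7% of all tested genes did, and of these 4 only Daxx passed. Asf1b (Entrez 66929, chromosome 8, 83955694 to 83970195) had 332, 346 and 362 CPM in knockout and 242, 271 and 270 CPM in wildtype oocytes. The groups were well separated, and the log2 fold change was 0.41 (SE 0.111, adjusted p = 0.0539, edgeR), or 0.36 without wildtype replicate 1 (adjusted p = 0.000755). Its paralog Asf1a had 477, 482 and 518 CPM against 422, 474 and 478 CPM, with overlapping groups (log2 0.11, SE 0.113). For Hira, the chaperone that gives its name to the complex for active chromatin, the log2 fold change was 0.30 (adjusted p = 0.275, edgeR). Atrx, the remodeler that works with DAXX, was the exception, with 454, 511 and 499 CPM in knockout and 633, 538 and 570 CPM in wildtype oocytes (log2 -0.25, SE 0.119, adjusted p = 0.208, edgeR). All knockout libraries thus lay below all wildtype libraries for Atrx and above them for Daxx, where 40.2% of all tested genes had groups that did not overlap. Of 15 listed H3.3 genes and chaperone partners 0 were called by edgeR and 1, Dek, had an unadjusted p under 0.05 (adjusted p = 0.0781). These 15 leaned the other way from the members, with 4 log2 fold changes above 0, 11 below 0 and a median of -0.17. Without wildtype replicate 1, 0 of the 15 rose and 4 fell, 26.7% against 34.4% of all genes. H3f3a and H3f3b, which encode H3.3 and have near-identical copies that could share their reads, had log2 fold changes of 0.03 and -0.47.

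Ctcf, the protein that organises chromatin loops, had 113, 118 and 113 CPM in knockout and 227, 131 and 139 CPM in wildtype oocytes. Every knockout library was below every wildtype library, where 40.2% of all tested genes had groups that did not overlap. The log2 fold change was -0.53 with all libraries (adjusted p = 0.145, edgeR) and -0.24 without wildtype replicate 1 (adjusted p = 0.0118, edgeR). Brwd1, a bromodomain protein that female mice need for fertile oocytes, had 111, 114 and 125 CPM against 131, 131 and 128 CPM (log2 -0.15, SE 0.108, adjusted p = 0.384, edgeR). Of 4 tested relatives of Ctcf and Brwd1, 0 were called by edgeR and 1, Brwd3, had an unadjusted p under 0.05 (log2 -0.61, adjusted p = 0.0898).

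Across the 125 partner genes tested, of 132 listed, 3 rose and 5 fell, 6.4% against the background of 11.2%. The median log2 fold change was -0.02. Without wildtype replicate 1, 13 rose and 27 fell, 32% against 34.4% of all genes, of which 16.7% rose and 17.7% fell. Without each of the other 5 libraries in turn 0 rose and between 0 and 4 fell. Over all genes those fits called only 216 to 501 higher and 141 to 437 lower, against 878 and 798 with all 6 libraries.

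Wildtype replicate 1 differed from the other wildtype libraries by more than 2-fold in 6 of the 38 members, all higher (Kdm6b, Setd1a, Setd1b, Kmt2b, Dot1l and Kmt2a), against 7.49% of all genes higher and 6.55% lower. Except for Kmt2a, these transcripts were GC-rich. The longest transcripts of Kdm6b, Kmt2b, Setd1b, Dot1l and Setd1a had GC contents of 59.6, 59.1, 59.0, 57.5 and 57.0%, where the median of tested genes was 49.2%. Over the 38 members the deviation of that library, as log2(CPM + 1) against the mean of the other wildtype libraries, went with GC content at Pearson r = 0.51 and Spearman rho = 0.45, and with log2 transcript length at r = 0.46 and rho = 0.51. These are descriptions over 38 genes that share the same 3 libraries. Over 13819 tested genes the same correlations were 0.25 and 0.25 with GC, and -0.21 and -0.20 with length. Not all GC-rich members were over 2-fold higher in that library: Trim28, at 59.6%, was 1.24 times the mean of the other wildtype libraries, and Kdm4b, at 58.7%, deviated downward to 0.590 times that mean. The part of transcript composition in the fold changes was not tested.

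**Figure D5:**
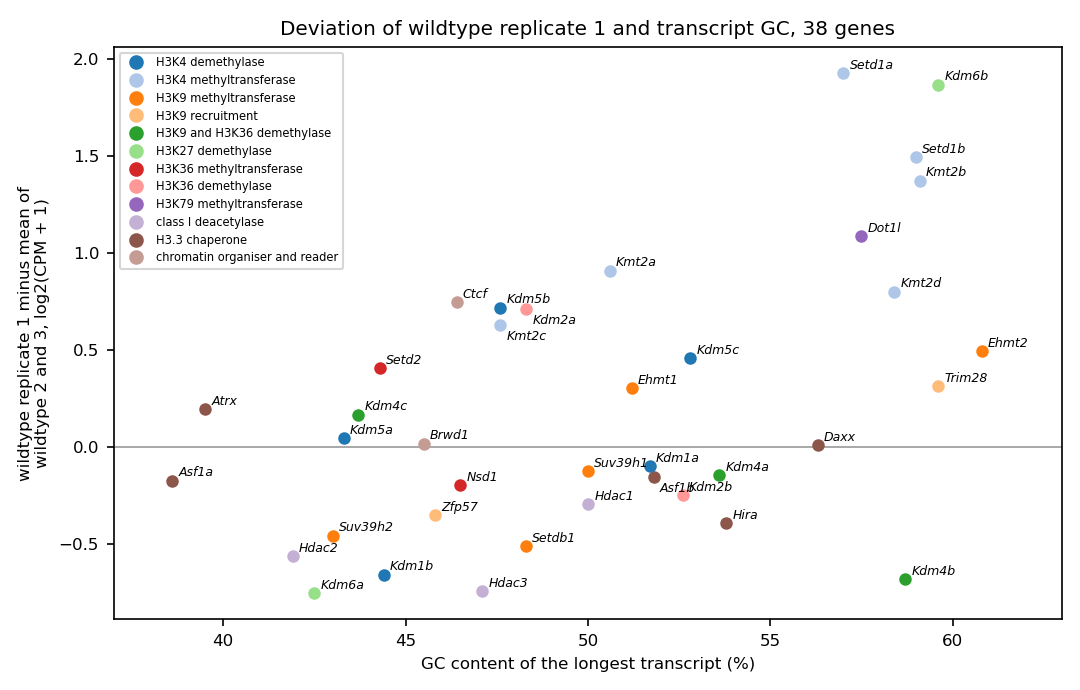
Difference of wildtype replicate 1 from the mean of wildtype replicates 2 and 3 on the log2(CPM + 1) scale, against the GC content of the longest transcript in percent, with 1 dot for each of the 38 genes, coloured by role. Setd1a, Kdm6b, Setd1b, Kmt2b and Dot1l lie highest, at GC contents of 57.0% and more, and Kdm4b lies low at a similar GC content.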

How the data were processed

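RNA of 3 knockout and 3 wildtype pools was extracted with PicoPure, amplified with the SMARTer Ultra Low Input kit and made into NexteraXT libraries for single-end sequencing, per the labels' protocols. The authors deposited raw counts of reads per Entrez gene, 1 table per library, made with STAR 2.7.11a and featureCounts 2.0.3 on GRCm38.p6 (mm10), per the submitters' processing notes. For the annotation, strand setting and multi-mapping reads nothing is given in the sources used here, so reads of overlapping or copied genes may be shared. Of 27179 identifiers 25275 were named from the RefSeq table of the same assembly, whose 1-based coordinates are given.

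Genes were filtered with edgeR's filterByExpr (minimum count 10), leaving 14957, scaled by TMM, and tested with edgeR 4.0.16's quasi-likelihood test in R 4.3.3 with Benjamini-Hochberg adjustment over all of them. Genes with an adjusted p under 0.05 were called. Standard errors are the absolute log2 fold change over the square root of F. CPM values were computed from the counts and are given as mean ± SD. GC content and length are those of the longest GENCODE M21 transcript. The fits were tested on simulated data. No 2 libraries agreed within sampling noise. Text names all members and, from each partner list, up to 6 genes, called ones first and then those of smallest p; other partners (Wdr5, Rbbp5, Dpy30, Ncor1, H3f3a and genes not tested) were named after their values were seen. Members, lists and tests were chosen with earlier results of these data known. Alternatives were DESeq2 size factors, library totals, no filter, a filter at 5 CPM in 3 libraries, limma-voom (limma 3.58.1), the Wald test of DESeq2 1.42.0, a replicate block and each library left out.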

Additional observations from a re-analysis of the deposited data

How the results depend on the processing

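Hdac3, Daxx, Kdm4c and Kdm5c kept their direction in every alternative that tested them. DESeq2 size factors, no filter and limma-voom left the same 4 genes called, whereas library totals and the filter at 5 CPM kept Hdac3 and Daxx and added Asf1b and Nsd1. The DESeq2 Wald test called 4 members higher and 3 lower (adding Asf1b, Nsd1 and Kdm6b), 6 and 8 partner genes, and 1329 and 1342 of all genes, where edgeR called 878 and 798. At 5 CPM all genes gave 513 higher and 525 lower, and 3 partner genes fell, as with library totals. Leaving out 1 library gave 0 to 7 members higher and 0 to 8 lower, 0 to 13 and 0 to 27 partner genes, and 216 to 2526 and 141 to 2673 of all genes, in each case highest without wildtype replicate 1. Replicate numbers are shared by the genotypes. Deviations from the group mean correlated at -0.0583, 0.00997 and -0.0935 for same-numbered libraries and at -0.0281 to 0.0793 for the other pairs. With 3 libraries per group, and wildtype replicate 1 apart, these values cannot tell whether same-numbered libraries were handled together. With the replicate number as a block 0 members rose and 0 fell, 0 partner genes rose and 1 fell, and 327 and 210 of all genes were called.

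Trim28, Kdm4a and Dot1l changed sign in settings that did not call them. Trim28 went to -0.0066 (DESeq2 size factors), -0.0113 (library totals), -0.0235 (5 CPM) and -0.0068 (DESeq2 test), and to between -0.0845 and 0.115 with 1 library left out. Kdm4a went to -0.00035 with DESeq2 size factors and -0.0097 at 5 CPM. Dot1l went to 0.0012 with limma-voom and 0.029 with the replicate block. With 1 library left out, values ran from -0.0042 to 0.0692 for Suv39h1, -0.0956 to 0.0908 for Zfp57, -0.0786 to 0.0878 for Kdm4a, -0.0102 to 0.34 for Kdm4b, -0.0491 to 0.31 for Kdm6a, -0.40 to 0.0697 for Kdm2a and -0.29 to 0.40 for Dot1l. Each changed sign without wildtype replicate 1, where only Dot1l was called. Reads without molecular identifiers are not independent molecules, and depth limits precision most for Kmt2a, Kdm4c and Ehmt2, with 4, 13 and 26 reads in their lowest libraries. The cause of these shifts was not tested.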

Other observations

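Over the 38 members the log2 fold change between genotypes ran against transcript GC content at Pearson r = -0.27 and Spearman rho = -0.19, and against log2 transcript length at r = -0.32 and rho = -0.40. Over 13819 tested genes the same correlations lay between 0.00 and 0.02. These values describe genes that share the same 6 libraries and carry no test.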
